A study of Drosophila melanogaster with 75 samples.

Results

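Gene expression in the heads of mated males was set against that in the heads of courted males, to show what mating adds to exposure to a female. The arrays were chosen by their titles, which give 5 mated and 5 courted replicates, 10 of the 15 arrays of the series. Mated males were exposed on day 5 to a virgin female, which was removed after mating, and collected 2 hrs after copulation ended. Only mated males within set limits of mating latency and duration were kept. Courted males were exposed to a cauterized virgin female, and control males to no female fly. Courted and control males were collected at the same time as a mated male. All groups were 5-day-old isogenized Canton-S males, kept singly in vials before the exposure, and each array held RNA from the pooled heads of 30 males. The sources used here do not say what was cauterized, nor whether any courted male copulated, and the methods of the study describe only the mated and control males. Mating, the selection of mated males and the use of a cauterized female cannot be told apart in this comparison. Each RNA was hybridized to 1 *Drosophila* Genome 2.0 array, and each array was deposited in 5 versions, 75 in all, that differ only in the algorithm used to turn probe brightness into an intensity per probe set. Values below are GC-RMA intensities unless another algorithm is named. They are linear and comparable between arrays for a given probe set, but not between probe sets. Differences are given as log2 fold changes, mated minus courted, with the standard error (SE) of the fit.

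The head of the fly holds the brain and the eyes and, around the brain, a sheet of fat body, an adipose tissue that stores lipid and secretes proteins into the hemolymph much as liver and fat do in vertebrates. Male courtship depends on the somatic sex-determination pathway, which ends in *doublesex* and *fruitless*, and several genes expressed in head fat body are sex-biased under the control of this pathway. A male that courts receives visual, gustatory and olfactory cues from the female, and copulation adds the transfer of sperm and seminal fluid.

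The 18952 probe sets included 183 controls, which were left out, and 7636 probe sets with a mean intensity above 100 over the 10 arrays were tested. They named 6403 genes, each represented by its brightest probe set. Markers of head tissues were present in both groups. The photoreceptor genes *trp*, *Arr1* and *chp* summed to 60340.0 to 62812 in mated and 54755 to 64157 in courted arrays. Corresponding sums were 16942 to 20104 and 15639.5 to 18128 for the glial genes *repo*, *Gs2* and *nrv2*, and 38270.3 to 43332 and 37369 to 40351 for the fat body genes *Lsp2*, *apolpp* and *fit*. Among neuronal markers only *nSyb* passed the minimum, with *elav* and *brp* below it. Markers of accessory gland, testis and gut were under the minimum in every case, with 0 of 11 measured and no intensity above 24.9 in either group. Since whole heads were used, fewer cells of a type and less RNA per cell cannot be told apart.

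One courted array stood apart from all others. The array type carries control probe sets for the 3′ and the 5′ end of a few abundant transcripts, and a high ratio between them means that signal from the 5′ end was weak. In courted replicate 4 this ratio was 23.4 for *eIF-4a*, while mated arrays had 1.98 to 2.45, the other courted arrays 1.87 to 3.02 and control arrays 2.05 to 2.85. For actin it was 11.8 in courted replicate 4, with 1.52 to 2.00 in mated arrays, 1.62 to 2.17 in the other courted arrays and 1.67 to 2.22 in control arrays. GAPDH gave 3.98 in courted replicate 4, against 1.48 to 1.72 in the other courted arrays. The same array had 152 probe sets more than 1 log2 unit below the mean of the other courted arrays, and courted replicate 3 had 104. No mated array had more than 34, and control replicate 3 had 47. More than 1 log2 unit above the others of the group were 103 probe sets in courted replicate 5 and 72 in control replicate 4. No mated array had more than 30 of these. Spread between replicates was wider in the courted than in the mated group, with a median SD of 0.09 log2 units in mated and 0.13 in courted arrays (n = 5 each). It was 0.10 in courted arrays without replicate 4. Control arrays had 0.125, close to the courted group, so that the mated group had the smallest spread. The part of this array in the results was not tested beyond leaving it out, and values without it are given where calls or counts turn on it.

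**Figure D1:**
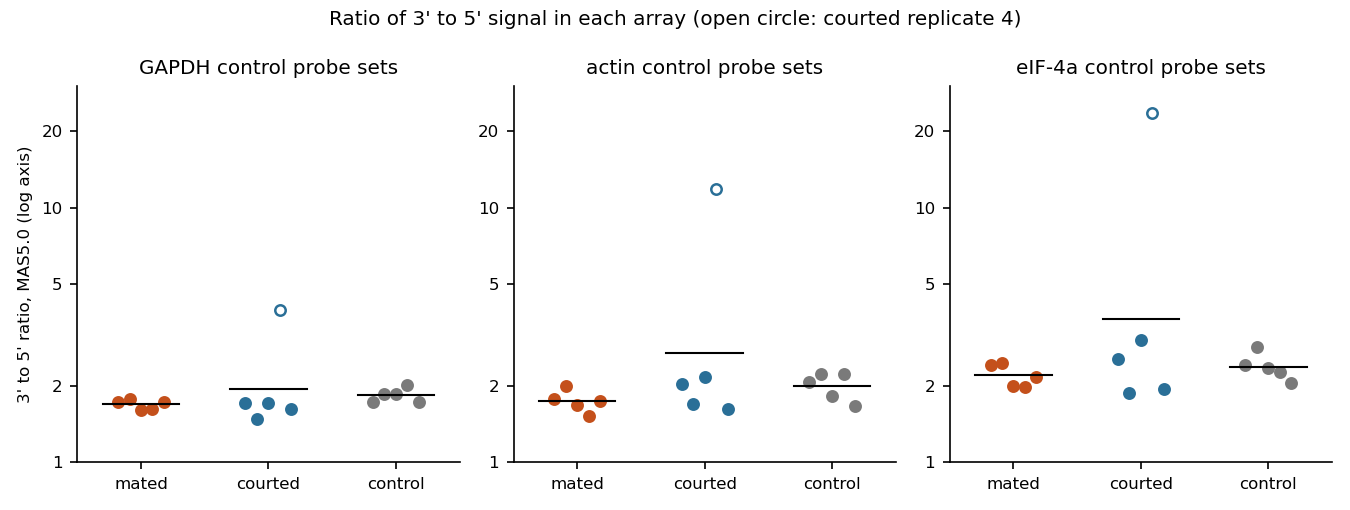
Ratio of 3′ to 5′ signal (MAS5.0, log axis) of 3 control transcripts in each mated, courted and control array. Points are arrays and lines geometric means, and the open circle is courted replicate 4, which reached 23.4 for *eIF-4a* while all other arrays lay between 1.87 and 3.02.

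Few differences between mated and courted heads exceeded the spread between pools. With the replicate number as a block, no probe set passed limma's test at an adjusted p under 0.05 (0 of 7636, 0%, lowest adjusted p = 0.292). At an unadjusted p under 0.05, 83 probe sets (1.09%) were higher and 174 (2.28%) lower in mated heads, 257 together, where 381.8 would be expected with no difference at all. Without the block limma called 3 probe sets (0.0393%), which were *smp-30* and *CG3999*, lower in mated heads, and *TBC1D5*, higher in mated heads. A regularized paired test (Cyber-T style) also called 3. In the fit without the block 85 (1.11%) were higher and 188 (2.46%) lower at an unadjusted p under 0.05. With replicate 4 left out of both groups and the block kept, 122 (1.6%) were higher and 186 (2.44%) lower, and 1 passed the adjusted threshold, *CG16772*, which was higher in mated heads. All 5 mated arrays lay above all 5 courted arrays for 26 probe sets (0.34%) and below them for 46 (0.602%). Taken by replicate number, mated heads were higher in all 5 pairs for 133 probe sets (1.74%) and lower in all 5 for 324 (4.24%). The median log2 fold change over all probe sets was -0.02, and only 72 probe sets differed by more than 0.5 log2 units. In dChip PM values the median was 0.03, and in MAS5.0 values -0.003. At an unadjusted p under 0.05 in limma with the block, dChip PM had 1264 of 15449 probe sets and MAS5.0 350 of 8507. For dChip PM-MM it was 557 of 10226, and for GeneSpring GC-RMA 281 of 8089. In both dChip data sets this share was above the 0.05 expected with no difference. In MAS5.0 and GeneSpring values it was below, as in GC-RMA.

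*smp-30*, a gene of the regucalcin (senescence marker protein-30) family, had the lowest adjusted p of any gene without the block. Intensities were 689, 731, 653, 684 and 687 in mated heads, against 1057, 1061, 1368, 1070.0 and 1129 in courted heads. Control heads had 1054, 998, 1029.6, 1004 and 860.0. Every mated array was thus below every courted and every control array, and courted replicate 3 was the highest of all. *smp-30* is in the study's list of genes lower in mated than in control heads, chosen on these same arrays. Its place below control heads is therefore not independent evidence. The log2 fold change was -0.72 (SE 0.08, 0.609 of the courted level), with adjusted p = 0.292 under the block and 0.00911 without it. In the fit without the block it was -0.74 without courted replicate 4 (adjusted p = 0.0234), and the call was lost without mated replicate 1 (-0.72, adjusted p = 0.0529) or mated replicate 4 (-0.71, adjusted p = 0.0556). A second probe set for *smp-30*, with low intensities, gave -0.53 (SE 0.11, adjusted p = 0.135 without the block), with no overlap between mated and courted arrays. In this probe set control replicate 5, at 6.83 on the log2 scale, was below every mated array (6.88 to 7.11). In dChip PM, MAS5.0, dChip PM-MM and GeneSpring GC-RMA values the first probe set of *smp-30* was called as well when fitted without the block.

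*CG3999* encodes glycine decarboxylase, the enzyme that opens the glycine cleavage system. Its intensities were 278, 306, 287, 258 and 259.7 in mated heads and 364, 415, 421, 396 and 478 in courted heads. Control heads had 360.4, 324, 282, 334 and 300.3. Every control array was below every courted array, and 2 of them lay within the range of mated heads, which did not overlap the courted range. The log2 fold change was -0.58 (SE 0.08, adjusted p = 0.295 with the block and 0.0336 without it). Without courted replicate 4 the difference was -0.59 and no longer passed (adjusted p = 0.0752, no block).

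*TBC1D5*, which belongs to a family of regulators of Rab GTPases in membrane traffic, had 2629.8, 2523, 2219, 2654 and 2175 in mated heads and 1702, 1666, 1726, 1714 and 1758 in courted heads. Control heads had 1816, 1629, 1919, 2058 and 1891. Courted arrays were nearly identical, control arrays scattered around and above them, and every mated array was higher than all 10 others. *TBC1D5* (CG8449 in the study) is in the study's list of genes higher in mated than in control heads, chosen on these same arrays. Its place above control heads is therefore not independent evidence. Here the log2 fold change was 0.51 (SE 0.07, 1.42-fold, adjusted p = 0.295 with the block and 0.0336 without it). It was 0.51 with adjusted p = 0.0752 when courted replicate 4 was left out of the fit without the block.

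**Figure D2:**
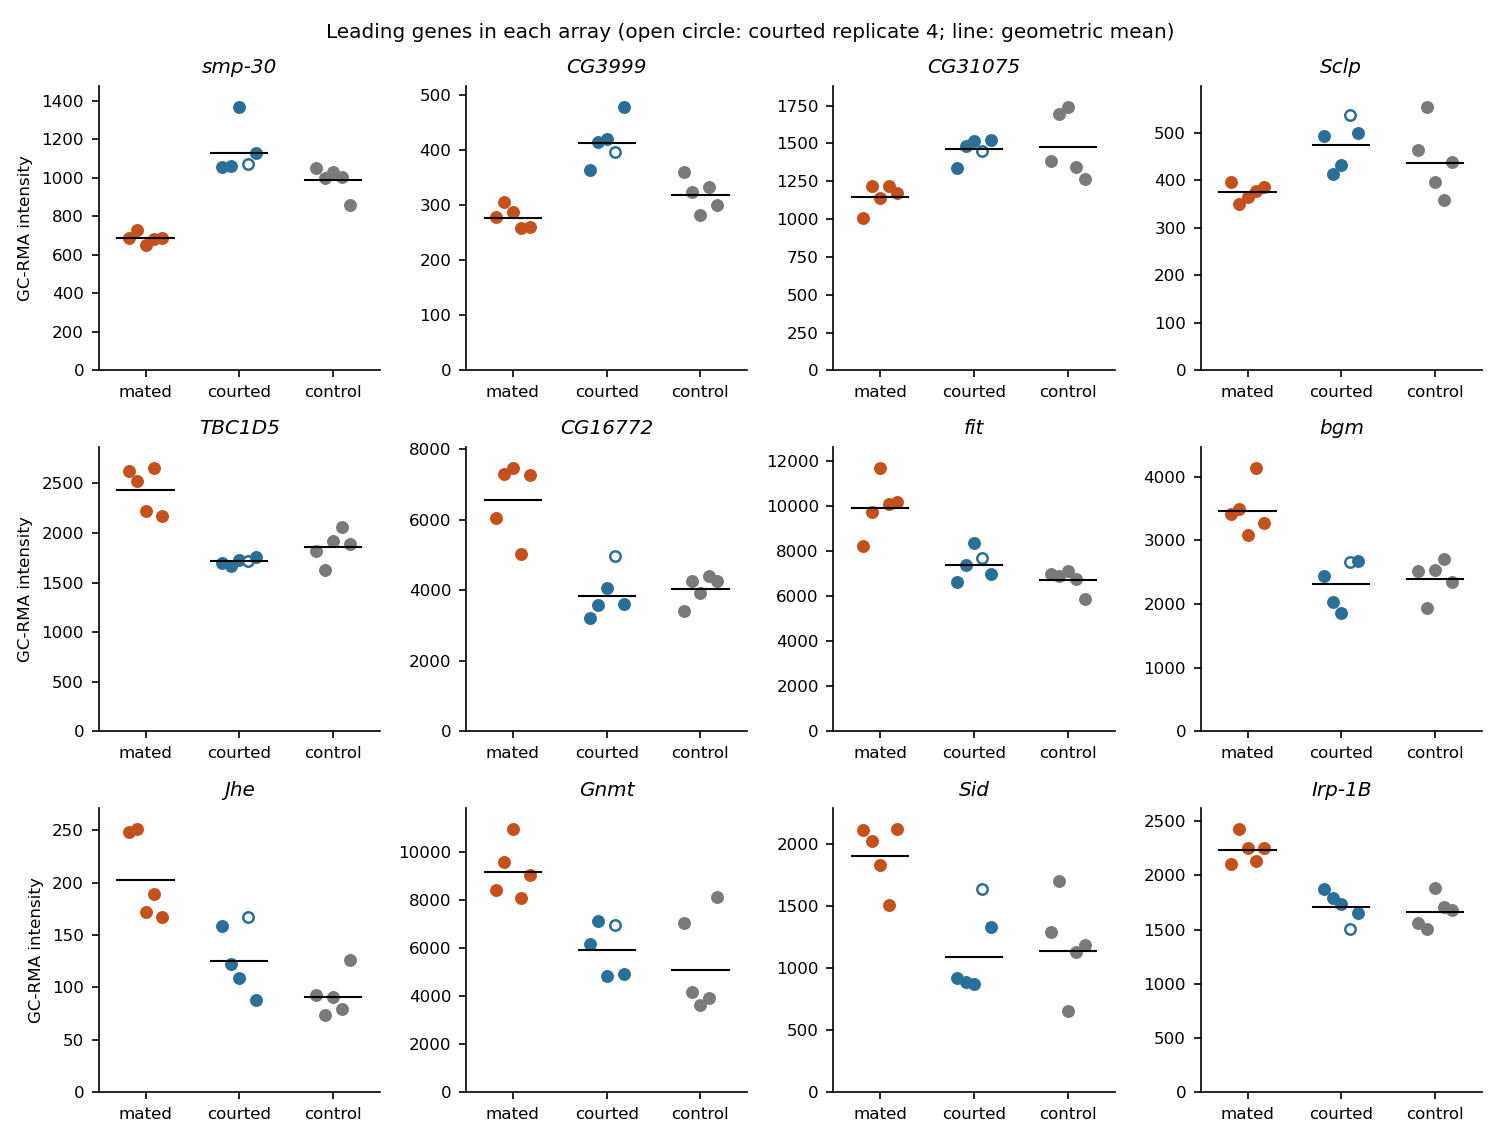
GC-RMA intensity (linear axis) of 12 genes in each of the 5 mated, 5 courted and 5 control arrays. Points are arrays, lines geometric means and the open circle is courted replicate 4. *smp-30* lies at 653 to 731 in mated and 1057 to 1368 in courted heads, and *TBC1D5* at 2175 to 2654 in mated and 1666 to 1758 in courted heads.

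*CG16772* had 6049.7, 7287, 7468, 5040.4 and 7282 in mated heads and 3226, 3579.6, 4071, 4967 and 3606 in courted heads. The study gives its molecular function as unknown and has it in the list of genes higher in mated than in control heads. It also counts the gene among immune response genes of the fat body that were lower in whole males during courtship. The study adds that the gene may lie downstream of *transformer*. Control heads had 3406, 4266, 3929.5, 4409.7 and 4274. The groups did not overlap, but mated replicate 4 and courted replicate 4 nearly met. With all arrays the log2 fold change was 0.77 (SE 0.15, 1.70-fold) and adjusted p was 0.848 with the block and 0.135 without it. Without replicate 4 it was 0.96, with adjusted p = 0.0208 under the block, and without courted replicate 4 alone it was 0.86, with adjusted p = 0.0752 and no block.

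Several genes of lipid, hormone and amino acid metabolism had higher intensities in mated heads with unadjusted p under 0.05 and did not pass the adjusted threshold. Those named here, *bgm*, *Jhe* and *Gnmt*, are in the study's list of genes higher in mated than in control heads. Where their control heads lie is therefore not independent evidence. *bgm*, a long-chain acyl-CoA synthetase, had 3414, 3499, 3089.5, 4135 and 3268 in mated heads and 2439, 2030.1, 1865, 2664 and 2670.4 in courted heads, for a difference of 0.58 on the log2 scale (SE 0.08, adjusted p = 0.295 with the block and 0.227 without it). Groups were apart, and its control heads, at 1942 to 2709, lay close to the courted range. *Jhe*, the esterase that degrades juvenile hormone, had 248, 251, 172, 189 and 167 in mated heads and 158, 122, 109, 167 and 87.6 in courted heads. The lowest mated and the highest courted array all but met. Its log2 fold change was 0.69 (SE 0.12, adjusted p = 0.742 with the block), and control heads were at 74.2 to 126, overlapping the courted but not the mated range. *Gnmt*, glycine N-methyltransferase, which uses glycine to consume S-adenosylmethionine, had 8414, 9591, 10949, 8073 and 9041 in mated heads and 6177, 7139, 4827, 6941 and 4925 in courted heads. Groups were apart by 0.63 on the log2 scale (SE 0.14, adjusted p = 0.880 with the block and 0.252 without it), while control heads spanned 3619 to 8113 and overlapped both.

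*fit*, a secreted product of the fat body, had 8215, 9761, 11693, 10098 and 10195 in mated heads, against 6629, 7369.7, 8376, 7713 and 6999.5 in courted heads. Control heads had 6976, 6907, 7141, 6776 and 5866. Mated heads were higher in all 5 pairs, but the lowest mated array was below the highest courted array. Its difference of 0.43 had an SE of 0.05 with the block (adjusted p = 0.292) and of 0.09 without it (adjusted p = 0.389). *Sid*, a stress-induced DNase, had 2116, 2026, 1829.7, 1512 and 2122 in mated heads and 920.5, 891, 875, 1638 and 1330.5 in courted heads. The overlap came from replicate 4, which was the lowest mated and the highest courted array. *Sid* gave 0.80 (SE 0.20, adjusted p = 0.982) with all arrays and 1.03 (SE 0.10, adjusted p = 0.266) without replicate 4, both with the block. *Irp-1B*, an iron regulatory protein, had 2102, 2427, 2254, 2133 and 2257 in mated heads and 1871, 1794, 1739, 1507 and 1656 in courted heads, with no overlap (0.39, SE 0.06, adjusted p = 0.432 with the block and 0.135 without it). *fit*, *Sid* and *Irp-1B* are also in the study's list of genes higher in mated than in control heads.

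The 15 genes leading the higher side were *CG13360*, *fit*, *TBC1D5*, *bgm*, *CG30002*, *Irp-1B*, *Jhe*, *CG14762*, *CG5618*, *Pss*, *shf*, *CG16772*, *Prx6c*, *MFS9* and *Phyhd1*, chosen by lowest p among genes higher in all 5 pairs and of the same sign in dChip PM and MAS5.0. Log2 fold changes ranged from 0.24 to 0.77. The choice by p and by direction favors genes without overlap, and every mated array exceeded every courted array for 12 of them (0.34% of all probe sets). The sign in GC-RMA, dChip PM and MAS5.0 was part of the choice. All 15 had a control mean nearer the courted than the mated mean. The share over all probe sets was not counted. Of the 15, 11 are in the lists of the study, chosen for a difference between mated and control heads on the same arrays, which favors this order. *Pss* encodes phosphatidylserine synthase (0.27, SE 0.05), *Prx6c* a peroxiredoxin (0.36, SE 0.08), *MFS9* a transporter of the major facilitator superfamily (0.33, SE 0.07) and *shf* a secreted protein that helps Hedgehog spread (0.37, SE 0.07). *CG13360* had 531, 540.5, 568, 581 and 466 in mated heads and 368, 419, 413, 444 and 368 in courted heads (0.42, SE 0.05). *CG30002*, a predicted serine protease, had 2669, 2312, 2449.6, 2353 and 2328 in mated heads and 1929, 1764, 2121, 1887 and 1813 in courted heads (0.35, SE 0.05). Both were fully separated, by margins that were small beside the level itself.

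The 15 genes leading the lower side were *smp-30*, *CG3999*, *CG31075*, *Sclp*, *CG12643*, *CG2004*, *ninaD*, *CG4476*, *GstE7*, *CG34265*, *CG31689*, *CG7695*, *CG3376*, *CG16898* and *CG6928*. Their differences were smaller, with only *smp-30* and *CG3999* beyond 0.5 log2 units. They were chosen in the same way. In 8 of the 15 every mated array was below every courted array (0.602% of all probe sets), and in 10 the control mean was nearer the courted than the mated mean. Of these 15, 4 are in the lists of the study, and the share of such control means over all probe sets was not counted. *CG31075*, an aldehyde dehydrogenase, had 1006, 1220.0, 1137, 1221 and 1175 in mated heads and 1338, 1485, 1517, 1453 and 1524 in courted heads (-0.35, SE 0.05, adjusted p = 0.295). Its control heads had 1268 to 1740.1, above all mated arrays. *CG31075* is in the study's list of genes lower in mated than in control heads, chosen on these same arrays. *Sclp* had 396, 351, 365, 378 and 386 in mated heads and 494, 414, 433, 538 and 501 in courted heads (-0.34, SE 0.06). *ninaD*, a scavenger receptor for carotenoid uptake needed to make visual pigment, had 785, 817, 801, 701 and 709 in mated heads and 903, 911, 1066, 878 and 816 in courted heads (-0.26, SE 0.05). The 2 groups met at the edge, since mated replicate 2 was just above courted replicate 5.

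**Figure D3:**
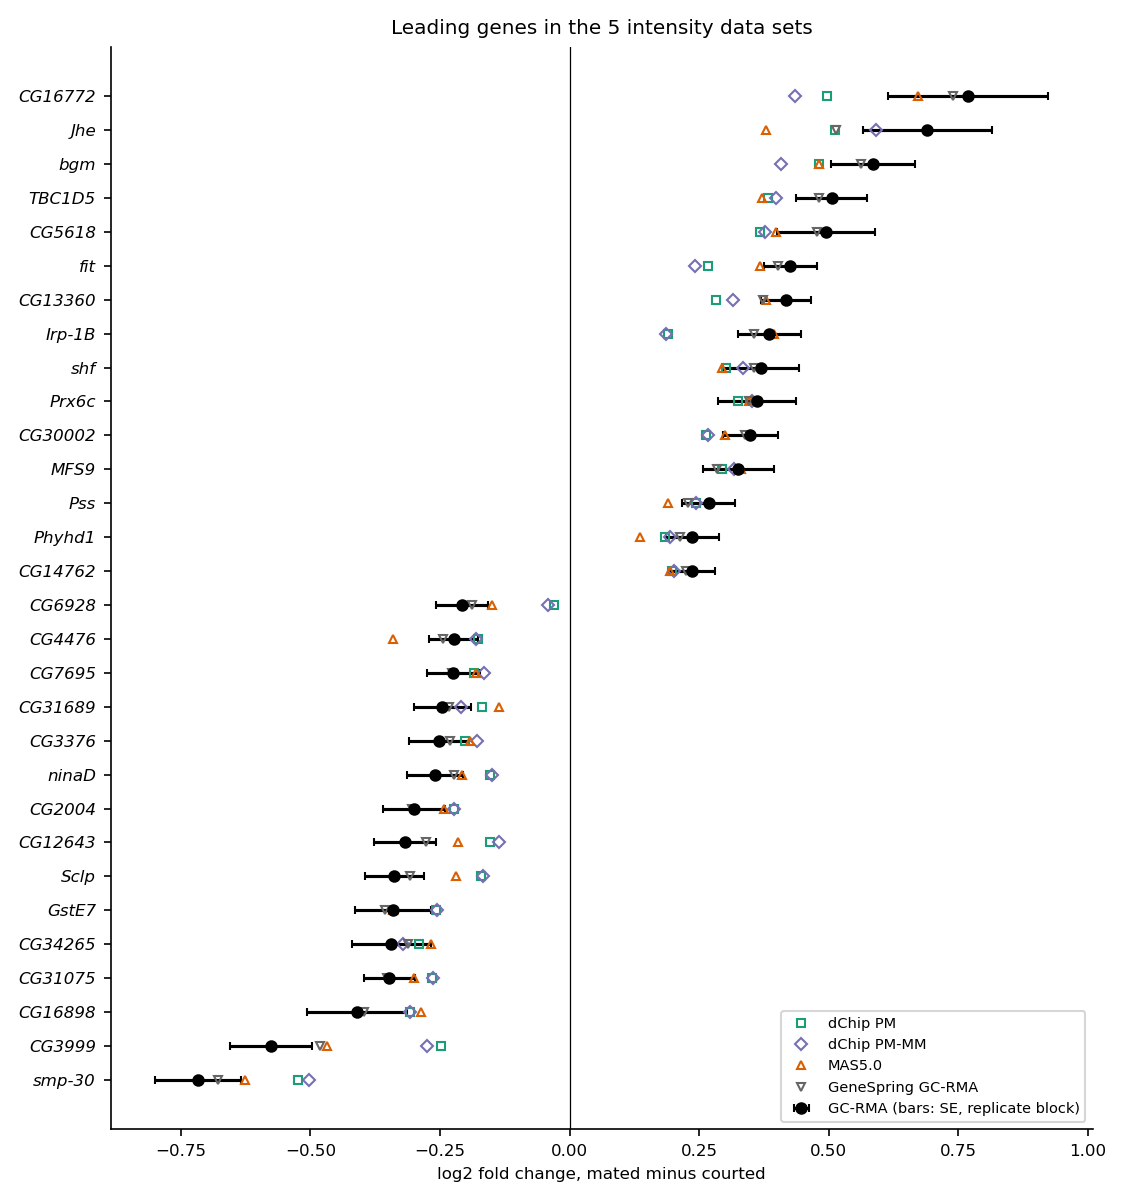
Log2 fold change, mated minus courted, of the 15 genes leading each direction in 5 intensity data sets. Filled points are GC-RMA values with SE bars from the fit with the block, and open symbols are the other algorithms. The sign in GC-RMA, dChip PM and MAS5.0 was used to choose the 30 genes, so that only the sizes, 0.21 to 0.77 in GC-RMA, are to be read.

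The study lists genes that differ between mated and control males, chosen on the same mated arrays. These lists are therefore not independent evidence of direction here. The higher list has 25 genes, of which 24 had a probe set assigned to that gene alone in the annotation used here, and 22 were measured. In mated against courted heads 21 had a positive difference, 19 of them with unadjusted p under 0.05 (background 1.09%), with a median of 0.42 where all genes had -0.02. Groups did not overlap for 10 (background 0.34%). The exception was *Zasp52*, a Z-disc protein of muscle, at -0.08 (SE 0.08). *AsnS*, asparagine synthetase, had 1190.1, 1259, 1486, 1441 and 1380.4 in mated heads and 1226, 1347, 995, 814 and 1273 in courted heads (0.28, SE 0.15). Courted replicate 4 was the lowest of these, and the difference was 0.14 (SE 0.12) without replicate 4. *CG13965* was the other without p under 0.05 (0.55, SE 0.24), and without replicate 4 it was 0.83 (SE 0.10, unadjusted p = 0.000241). The counts at unadjusted p were 20 without the block and 18 without replicate 4.

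The lower list has 22 genes, of which 18 had a probe set assigned to that gene alone in the annotation used here, and 17 were measured. The remaining genes of either list were not analysed here. Of the 17, 16 had a negative difference, 13 with unadjusted p under 0.05 (background 2.28%), with a median of -0.26, and groups did not overlap for 5 (background 0.602%). Without replicate 4 the count was 14. *alpha-Est2*, an esterase, had 760.0, 1213, 1129, 1118 and 960.3 in mated heads and 1378, 1365, 1309, 1352 and 1453 in courted heads (-0.42, SE 0.11, adjusted p = 0.982). All courted arrays were above all mated arrays, and control heads were at 1197 to 1658. *P5cr-2*, an enzyme of proline synthesis, had 1574, 1503, 1611, 1661 and 1470.4 in mated heads and 2130.4, 2127, 2084, 1559 and 1754 in courted heads (-0.29, SE 0.09). Courted replicate 4 alone fell in the mated range, and the value without replicate 4 was -0.39.

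*Lsp2*, which encodes a larval serum storage protein, was the exception in the lower list. It had 5177, 6019, 6556, 5857 and 5594 in mated heads and 4703, 5119, 5568, 5115 and 6826 in courted heads, while control heads had 8652, 8302, 9014, 7762 and 5499. Mated and courted arrays overlapped throughout (0.10, SE 0.09, unadjusted p = 0.283), and 4 of the 5 control arrays were above all 10. *Cyp4e3*, a cytochrome P450, had 379.9, 309, 404, 336 and 329 in mated heads, 397, 429, 427, 249 and 404 in courted heads and 437 to 528 in control heads (-0.10, SE 0.13). The lowest courted value was replicate 4, and without replicate 4 the difference was -0.23 (SE 0.08, unadjusted p = 0.0347). *Dr*, a homeodomain transcription factor, gave -0.24 (SE 0.16) with wide overlap. *CG33462*, the largest decrease in the lower list of the study, is among the negative differences but was very variable. It had 372, 674, 4.41, 4.50 and 32.2 in mated heads and 624, 4.32, 239, 944 and 69.7 in courted heads (-1.61, SE 2.05). Without replicate 4 it gave -0.08 (SE 2.00).

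In the gene lists that follow, members are called higher or lower where their unadjusted p was under 0.05 in the fit with the block, and in that fit none passed the adjusted threshold. Over all 6403 genes 73 were higher and 152 lower by this measure, and 62% had a negative difference of any size. This lean was smaller without replicate 4, where 3305 of the 6403 genes had a negative difference. List members that are also in the lists of the study were chosen on the same mated arrays, so their direction is not independent evidence. Without the block 12 list members were no longer past the unadjusted threshold, namely *fru*, *Obp99b*, *Mondo*, *Lst*, *Sardh*, *Cipc*, *crq*, *Sr-CI*, *br*, *GstE6*, *GstT2* and *Cpr62Bb*. Another 8 were newly past it. These were *Tsf1* and *Cyp9c1*, higher, and *Pepck1*, *Lpin*, *UGP*, *Arc2*, *Cyp6a8* and *Rpn11*, lower. Among 9 measured genes of juvenile hormone synthesis, breakdown and response, *Jhe* was higher and *Fpps*, farnesyl pyrophosphate synthase, lower (-0.24, SE 0.06). *Fpps* had 299, 299.8, 325, 287 and 324 in mated heads and 382, 388, 367, 343 and 338 in courted heads. These groups did not overlap, and the median of the list was 0.01. Of 7 sex-determination regulators 1, *fru*, was higher, with 935, 928, 674, 1071 and 991 in mated heads and 776, 850.4, 608, 837 and 787 in courted heads. It was higher in all 5 pairs (0.25, SE 0.05, adjusted p = 0.880), although replicate 3 was the lowest array in both groups and the groups overlapped. The list median was 0.08. Of 12 sex-biased fat body genes and *fruitless* targets, 4 were higher (*fit*, *CG16772*, *Prx6c* and *Cyp4d21*) and 2 lower (*CG16898* and *Obp99b*), with a median of 0.07. Without replicate 4 and with the block *Obp99b* was not past the threshold, leaving 4 and 1. Of the genes past it, *fit*, *CG16772*, *Prx6c* and *CG16898* are in the lists of the study, so these counts are not independent of the mated arrays. *Cyp4d21*, a P450 also called *sxe1*, had 2493, 2143, 2108, 3177 and 2482 in mated heads and 2295, 1929.7, 1692, 1845 and 1906 in courted heads (0.35, SE 0.10).

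Metabolic lists had medians close to 0. In fatty acid oxidation *bgm* was the only higher one of 13 genes, with 0 lower, and the list median was 0.02. Without replicate 4 *Acox57D-p* was also lower (-0.17). Of 18 genes of lipid synthesis and storage, *Pss* and *Apoltp*, which carries lipid between tissues, were higher (0.27 and 0.16), and *mdy*, a diacylglycerol acyltransferase, and *CG8112* were lower (-0.14 and -0.42). Of 25 genes for amino acid and one-carbon metabolism 2 were higher, *Gnmt* and *Sardh*, sarcosine dehydrogenase (0.17), and 3 lower, *CG3999*, *P5cr-2* and *Agxt*, an alanine-glyoxylate aminotransferase (-0.18). Without replicate 4 *Sardh* was not past the threshold, *pug* was lower (-0.14), and the counts were 1 and 4. Glycine is a substrate or product in the reactions of *Gnmt*, *Sardh*, *CG3999* and *Agxt*. Of 9 purine synthesis genes 1 was lower, *Gart* (-0.26, SE 0.10), and the list median was -0.06. In insulin signaling and fasting, 2 of 20 genes were higher, *sug* and *Lst* (0.22 and 0.19), and 3 lower, *bmm*, *tobi* and *Mondo* (-0.20, -0.26 and -0.13). *bmm* encodes a triglyceride lipase and *tobi* a target of insulin-producing cells and adipokinetic hormone. Without replicate 4 only *sug* (0.27) and *tobi* (-0.33) were past the threshold. Of 19 genes of glycolysis and sugar metabolism 0 were past it in this fit, while *UGP* was lower without replicate 4 (-0.25, unadjusted p = 0.0235) and in the fit of all arrays without the block (unadjusted p = 0.0311). Among 17 secreted, storage and iron proteins of the fat body 3 were higher (*fit*, *Irp-1B* and *Apoltp*) and 3 lower (*smp-30*, *bmm* and *Obp99b*), with a median of 0.01, and without replicate 4 *smp-30* was the only lower one. Here *fit*, *Irp-1B* and *smp-30* are in the lists of the study.

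Of 26 glutathione S-transferases, which detoxify by conjugation, 23 had a negative difference (as did 62% of all genes) and 4 were lower, namely *GstE7* (-0.34), *GstE3* (-0.19), *GstE6* (-0.15) and *GstT2* (-0.13). The list median was -0.07. This lean was not particular to the family. Negative differences were held by 8 of 9 purine synthesis, 13 of 16 muscle and 10 of 13 heat shock genes, while 17 of 36 lists had a median above 0. *GstE7* had 967, 1078, 1208, 949.5 and 1088 in mated heads and 1195, 1279, 1626, 1423 and 1197 in courted heads, with overlap only between the highest mated and the 2 lowest courted arrays. Without replicate 4 the difference was negative for 19 of 26 (and for 3305 of all 6403 genes). In that fit 5 were lower, with *GstT4* added (-0.22), and the median was -0.05. Without replicate 4 negative differences were held by 15 of 16 muscle, 17 of 19 glycolysis and sugar metabolism and 21 of 26 proteasome genes. Of 49 cytochrome P450 genes, *Cyp6w1* (0.30) and *Cyp4d21* were higher and *Cyp12e1* lower (-0.21). Without replicate 4 *Cyp12e1* was not past the threshold, and *Cyp4e3*, *Cyp6t1* (-0.18) and *Cyp28d1* (-0.16) were lower. *Cyp6w1* had 3817, 4128, 4055, 4229 and 3581 in mated heads and 3384, 3303, 3545, 2913 and 2982 in courted heads, with no overlap. In 13 UDP-glycosyltransferases only *Ugt35C1* was past the unadjusted threshold (-0.29).

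With the block no gene of the neuronal (12), glial (15), biogenic amine (17), neuropeptide (23) or neuronal activity-regulated (11) lists had an unadjusted p under 0.05. Without replicate 4 this threshold was met by *CG6126* in the glial list (-0.15), *NPF* among the neuropeptides (0.14) and *Arc1* among the activity-regulated genes (-0.23). In limma without the block only *Arc2* of the activity-regulated genes met it (-0.17, unadjusted p = 0.046). Of 12 genes of courtship learning and memory *scb*, an alpha integrin, was lower, with 352, 319, 311, 314 and 345 in mated heads and 364, 384, 365, 476 and 384 in courted heads (-0.26, SE 0.08). The groups did not overlap, and the highest courted value was replicate 4 (the value without replicate 4 was -0.18, and *pum* was then higher at 0.13). In the clock list *Cipc* alone of 14 was past the unadjusted threshold (0.13). Of 20 photoreceptor genes only *ninaD* was past it. Of 17 eye pigment and pteridine genes *CG12116*, a sepiapterin reductase, was higher (0.25) and *ry*, xanthine dehydrogenase, lower (-0.39). *CG12116* had 7798, 8154, 7969, 8211 and 8128 in mated heads and 5933, 5910.2, 7458, 7814 and 6941 in courted heads, so that only courted replicate 4 reached the mated range.

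**Figure D4:**
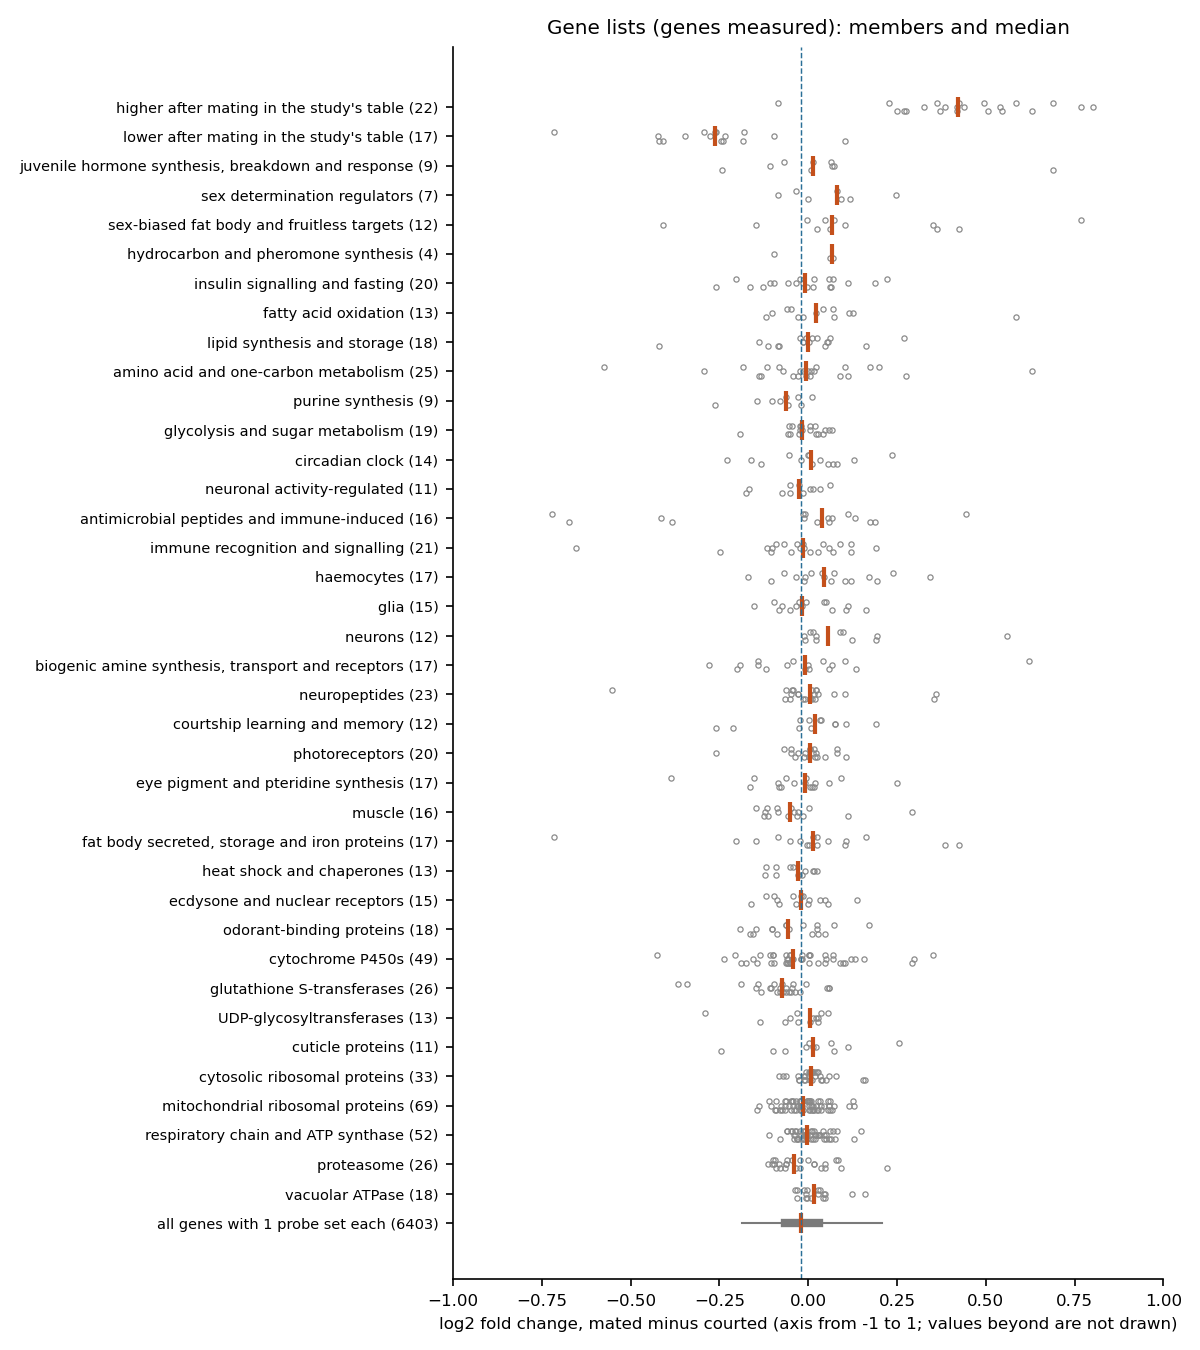
Log2 fold change, mated minus courted, of the measured genes of each list (number in brackets). Open circles are genes, upright bars list medians and the dashed line is the median of all genes (-0.02). Apart from the 2 lists of the study, at 0.42 and -0.26, list medians lie between -0.07 and 0.08.

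None of 33 cytosolic ribosomal, 69 mitochondrial ribosomal, 52 respiratory chain, 26 proteasome, 13 heat shock and 16 muscle genes had an unadjusted p under 0.05, and their medians ran from -0.05 to 0.01. Without replicate 4 only *Rpt3* of the proteasome was past the threshold among these (-0.12). In limma without the block only *Rpn11* of the proteasome was (-0.11, unadjusted p = 0.032). In the vacuolar ATPase list (18) *VhaM9.7-a* was higher (0.12), in the cuticle list (11) *Cpr62Bb* was higher (0.26) and in the ecdysone and nuclear receptor list (15) *br* was lower (-0.16). Without replicate 4 *VhaM9.7-a* was not past the threshold, *Cpr62Bb* was at 0.16, and *Eip93F* was lower beside *br* (-0.17). Of 17 hemocyte genes the scavenger receptors *crq* and *Sr-CI* were higher (0.12 and 0.17). Neither was past the threshold without replicate 4, where *NimB4* was (0.27), nor without the block (unadjusted p = 0.206 and 0.128). The summed level of the 4 hemocyte markers was 5754 to 7101 in mated and 5546 to 6733 in courted arrays.

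Some immune-induced genes were spread widely among the pools of each group. *edin* had 13712, 7589, 429, 2029.5 and 351 in mated heads and 5622, 229.7, 9290.2, 9506 and 3418 in courted heads. *Def*, the antibacterial peptide defensin, had 5126, 3739, 414, 448 and 551 in mated heads and 1181, 172, 3568, 2765 and 1029 in courted heads. Mated replicates 1 and 2 and courted replicates 1, 3 and 4 were high in both genes, and courted replicate 2 was the lowest array of its group. *AttD*, an attacin, had 4474, 431, 10.3, 387 and 27.3 in mated heads and 414, 18.4, 1174, 1107 and 219.8 in courted heads, with the same arrays on top (-0.67, SE 1.66). Others were tight, such as *BomBc2*, with an SD of 0.04 log2 units in mated and 0.12 in courted heads (n = 5 each). These genes were chosen after their values were seen. Of the 16 antimicrobial and immune-induced genes measured, *BomT3* was higher (0.44, SE 0.18) and *Listericin* lower (-0.38, SE 0.15) by the unadjusted measure, and the list median was 0.04. Without replicate 4 neither was past it (unadjusted p = 0.0903 and 0.109), *BomS2* (0.19), *BomBc2* (0.17) and *BomBc3* (0.27) were higher, and the median was 0.12. In immune recognition and signaling (21) *nec*, a serpin, was the only one past it (0.19).

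**Figure D5:**
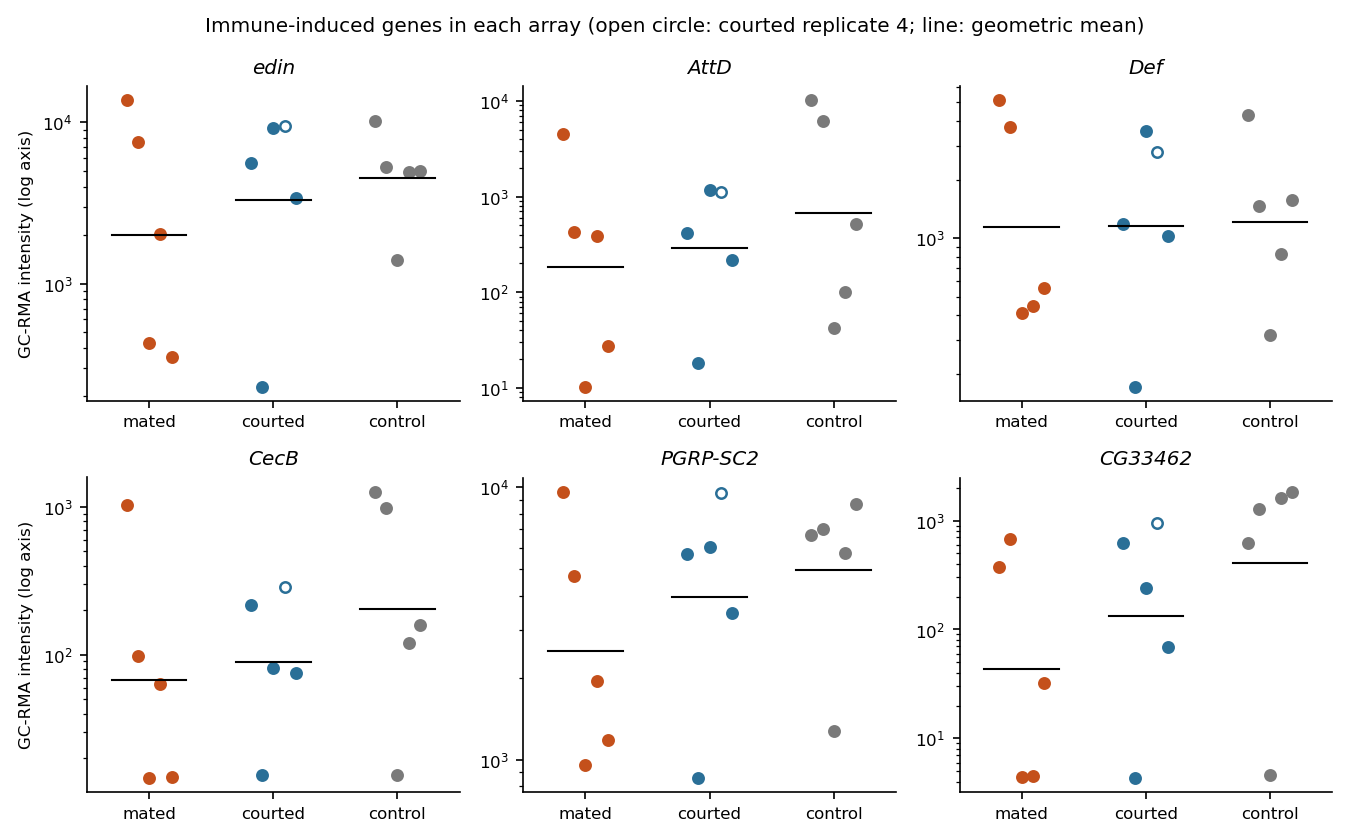
GC-RMA intensity (log axis) of 6 genes in each mated, courted and control array, with points as arrays, lines as geometric means and courted replicate 4 as an open circle. *edin* spans 351 to 13712 in mated and 229.7 to 9506 in courted heads.

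Of 7636 probe sets 11 differed by more than 1 log2 unit, and 0 of these had an unadjusted p under 0.05 in limma with the block. Their SD in the more variable group was 0.900 to 4.57 log2 units. Without replicate 4 only *Cyp4g1* still differed by more than 1 log2 unit. *Cyp4g1*, a P450 of hydrocarbon synthesis in oenocytes, gave 2.42 (SE 1.98), or 1.29 (SE 2.13) without replicate 4, with 1166, 155, 267, 633 and 13.3 in mated heads and 6.27, 8.47, 526, 5.20 and 639 in courted heads. A second, dimmer probe set of *Tsf1*, transferrin, gave 1.79 (SE 2.18), with 383, 213, 809.9, 6108 and 413 in mated heads and 1403, 857, 8.87, 5.34 and 5855 in courted heads. Courted replicates 3 and 4 were nearly without signal for *Tsf1*, as was control replicate 2, at 12.8. It gave -0.30 (SE 1.71) without replicate 4, and the brightest probe set of *Tsf1* gave 0.11 (SE 0.05). A dimmer probe set of *CG7920* gave 1.45 (SE 1.17), with 3969, 3502, 5623, 7474 and 4441 in mated heads and 5542, 5411, 1457, 56.8 and 6889.9 in courted heads, where replicates 3 and 4 were again the lowest. It gave 0.05 (SE 0.47) without replicate 4, and the brightest probe set of *CG7920* gave 0.04 (SE 0.07). Replicates 3 and 4 are the courted arrays with the highest 3′ to 5′ ratios for *eIF-4a* and actin. For GAPDH, courted replicate 3 was at 1.707, below courted replicate 1 at 1.716. Its actin ratio of 2.17 was below those of control replicates 2 and 4. Whether the ratios bear on these low intensities was not tested.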

How the data were processed

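RNA was hybridized to Affymetrix *Drosophila* Genome 2.0 arrays. The authors deposited linear intensities from 5 algorithms (GC-RMA in R/Bioconductor, dChip PM, dChip PM-MM, MAS5.0, GeneSpring GC-RMA). GCOS 1.2 is named in the submitters' processing notes. Control probe sets were left out. Values were floored at 1 and log2 transformed, and probe sets with a mean above 100 (50 in dChip) over the 10 arrays were fitted with lmFit and eBayes of limma 3.58.1 (R 4.3.3), taking replicate number as a block. P-values were adjusted by Benjamini-Hochberg over 7636 probe sets. The number may mark males collected together, but deviations of same-numbered mated and courted arrays correlated at 0.06, -0.53, 0.16, -0.45 and 0.02, so both fits are given. GeneSpring values below an empty place sat 1 row off in 15860 probe sets (correlation with GC-RMA 0.01 as deposited, 0.99 when moved), and were moved. Probe sets were named by the platform annotation: 13647 had 1 gene, 402 several and 4720 none. Replicates are separate pools, and the number of arrays limits the precision. Leading genes, 15 in each direction, are those past the threshold, filled by lowest p among genes of the same sign in all 5 pairs and in dChip PM and MAS5.0. Other genes named were taken from the study's lists, from the up to 4 genes of each list with the lowest p and from cell type markers, and not all of these are named. For lists of 5 or fewer genes at unadjusted p under 0.05 all are named, and the genes with more than 1 log2 unit of difference, the genes past the threshold only without replicate 4 and the immune genes were named after their values were seen. The members and lists were chosen with earlier results of these data known. Scripts were tested on simulated data. Alternatives were other algorithms, filters, offsets, normalization, tests, arrays left out and a fit of all 15 arrays.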

Additional observations from a re-analysis of the deposited data

Results flagged for a closer look

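In groups of 5 arrays the highest or lowest value was compared with its nearest neighbor by Dixon's ratio (critical value 0.71), in 114 groups (the mated and the courted arrays of 54 genes, and 6 groups of 3′ to 5′ ratios). Chance marks about 1 in 20 groups, and 11 were marked, 9 of them in courted arrays and 5 in courted replicate 4. The 3′ to 5′ ratios of courted replicate 4 were 3.98 for GAPDH (nearest courted array 1.72), 11.8 for actin (2.17) and 23.4 for *eIF-4a* (3.02). On the log2 intensity scale the lowest courted value was also replicate 4 for *CG5618*, at 11.42 (nearest 11.63), and for *Cyp4e3*, at 7.96 (8.63). Replicate 3 was the highest courted array for *smp-30*, at 10.42 (10.14), and for *CG16898*, at 9.43 (9.01). Courted replicate 2 was high for *CG18262*, at 6.92 (6.53), and courted replicate 5 low for *CG13607*, at 9.36 (9.67). In mated arrays replicate 4 was low for *Prx6c*, at 12.30 (12.68), and replicate 1 for *tobi*, at 10.20 (10.61). The cause of these values was not tested.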

How the results depend on the processing

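The count of probe sets past the adjusted threshold depended on the replicate block. It was 0 with the block in GC-RMA, dChip PM, MAS5.0, dChip PM-MM and GeneSpring values, and also with no filter, a minimum of 200, an added 16, quantile normalization, a trended variance or an unmoderated paired test. Without the block it was 3 (*smp-30*, *CG3999*, *TBC1D5*), with all 15 arrays in the blocked fit 4 (*smp-30*, *CG13360*, *TBC1D5*, *CG30002*), and with a Cyber-T style paired test 3 (*fit*, *smp-30*, *TBC1D5*). Leaving out each replicate number in the blocked fit gave 0 to 1, the 1 being *CG16772* without replicate 4. After the data had been seen, the fit without the block was added for the other algorithms and for all 15 arrays. It gave 1 in dChip PM, 1 in MAS5.0 and 1 in dChip PM-MM (*smp-30* in each), 2 in GeneSpring values and 4 with all 15 arrays. With 1 array left out of the fit without the block the count was 0 to 2, with 0 without mated replicate 1 or mated replicate 4, 2 without mated replicate 3, mated replicate 5, courted replicate 1 or courted replicate 2, and 1 without any other array. *smp-30* was called in each of the 8 fits with a count above 0. The rule of the methods was read as p under 0.001 and the adjusted threshold in the same 3 or more of the 5 algorithms. It took 0 probe sets with the block, 1 without it and 1 with the Cyber-T style test. On p under 0.001 alone the counts were 9, 16 and 19. Over all alternatives *smp-30* ranged from -0.76 to -0.50 (adjusted p 0.000614 to 0.918), *TBC1D5* from 0.37 to 0.56 (0.00761 to 0.9998) and *CG3999* from -0.62 to -0.25 (0.00761 to 0.9998). These 3 genes kept their sign in every alternative. Among single named genes, 11 results from the planned and 21 from the added alternatives were past the threshold where the main fit was not, and 14 and 16 medians of gene lists moved by more than the spread. The cause of the dependence on the block was not tested. In GC-RMA values the numbers do not pair the arrays by correlation. With all arrays kept, each log2 fold change was the same in both fits, so a call lost under the block is not a smaller difference. The SE did change, with a median over probe sets of 0.069 with the block and 0.074 without it. For *smp-30* it was 0.083 with the block and 0.074 without it, for *CG3999* 0.079 and 0.076, and for *fit* 0.051 and 0.093. The block also leaves fewer residual degrees of freedom, the independent values from which the spread is estimated. For the same difference and SE this gives a larger p. How far it bears on the calls was not tested. Probe sets under the minimum, with intensities near background, were not tested.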
